A study of Mus musculus with 11 samples.

Results

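Layer 5 pyramidal tract identity was followed in RNA of mouse cortex from a ribosome pull-down through 7 marker genes of these neurons. They were Colgalt2, Fezf2, Bcl11b, Crym, Vat1l, Npr3 and Pou3f1. The members were taken by symbol, and all 7 were present among the 32531 gene symbols counted in each of 11 libraries. The libraries came from adult Glt25d2-EGFP/Rpl10a (DU9) mice of a short-access intravenous self-administration study, and every group carried this transgene. The regulatory DNA of Glt25d2, the older name of Colgalt2, drives an EGFP-tagged ribosomal protein, and antibodies to EGFP pull down the tagged ribosomes with their RNA (translating ribosome affinity purification, TRAP). The immunopurified (IP) RNA was sequenced in 3 libraries after saline self-administration, 3 after cocaine self-administration and 3 from yoked controls. RNA taken before the pull-down (input) was sequenced in 1 library of the saline group, and RNA left after it (unbound) in 1 library of the cocaine group. The sources used here do not say what the yoked animals received or whether libraries are separate animals or pools, and p-values measure only the spread between libraries, which may be technical.

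Pyramidal tract neurons are the large cells of layer 5 whose axons leave the cortex for the brainstem and spinal cord. Their identity is set in development by the transcription factor Fezf2, which acts upstream of the transcription factor Bcl11b (also named Ctip2), a regulator of the outgrowth of subcortical axons. Intratelencephalic neurons of the same layer instead project within the cortex and striatum. Bcl11b is not particular to layer 5, since projection neurons of the striatum and many interneurons make it as well. Several of the other genes are used as adult markers of layer 5 in atlases of cortical cell types.

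Libraries held 20926712 to 53862653 counts in genes, and a member had between 316 (Npr3, unbound) and 14883 counts (Bcl11b, saline number 1). The 3 IP libraries of each group are numbered 1 to 3. For most members the numbers set the libraries apart more than the treatments did, as the values below show, but not for Npr3 or Bcl11b. Reads outside annotated genes were 6.28% to 7.29% in the IP libraries numbered 1 and 10.3% to 15.5% in those numbered 2 or 3. Genes with any count were 18695 to 18917 in the former and 19639 to 20383 in the latter. The part of these differences in the members' values was not tested. By their labels, IP libraries of the same number carry the same sequencing barcode in all 3 groups, so number and barcode cannot be told apart. Saline IP libraries all ran on lane 6, cocaine on lane 2 and yoked on lane 3. By its label the tissue is cerebral cortex, while the extraction text names the whole striatum. Tbr1, a transcription factor of cortical excitatory neurons, stood at 163 to 330 CPM (read counts brought to a common library size, with TMM scaling over the 11 libraries) and the striatal receptor genes Drd2 and Adora2a at 1.59 to 10.7 CPM, so cortical markers were present and striatal receptor transcripts were low in all 11 libraries. In bulk RNA, fewer cells of a type and less RNA per cell cannot be told apart.

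Fezf2, the transcription factor that directs layer 5 neurons to a subcortical fate, lies on the minus strand of chromosome 14 from 12342094 to 12348189 (GRCm38, the assembly of mm10; GENCODE M21, as for all positions below). It stood at 147, 60.3 and 82.0 CPM in saline IP libraries 1, 2 and 3, at 154, 57.1 and 55.3 CPM in cocaine, and at 129.8, 56.3 and 61.2 CPM in yoked. Input RNA was at 61.4 CPM and unbound RNA at 29.0 CPM. The library numbered 1 was thus the highest of each group, the other 6 IP libraries lay on both sides of the input, and the unbound library was the lowest of the 11.

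Bcl11b (chromosome 12, 107910403 to 108003602, minus strand), the zinc finger factor downstream of Fezf2, had another pattern. Its levels were 285, 186 and 184 CPM in saline IP libraries 1, 2 and 3, 139, 159 and 150 CPM in cocaine, and 214, 130.5 and 158 CPM in yoked. Input RNA was at 136 CPM and unbound RNA at 265 CPM. Number 1 was the highest library in the saline and yoked groups and the lowest in the cocaine group, and the unbound library exceeded every IP library other than saline number 1.

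Pou3f1 (chromosome 4, 124656807 to 124660655, plus strand), a POU-domain transcription factor also known as SCIP or Oct6, is a gene of a single exon. It stood at 90.2, 41.0 and 45.4 CPM in saline, at 68.5, 33.5 and 29.3 CPM in cocaine and at 61.9, 33.2 and 35.2 CPM in yoked. Input RNA was at 28.5 CPM and unbound RNA at 24.4 CPM. Each IP library lay above both of these other fractions, and number 1 was again the highest of each group.

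Colgalt2 (chromosome 1, 152399830 to 152510695, plus strand) encodes a collagen galactosyltransferase, and its regulatory DNA marks the cells of this mouse line. It was measured at 136, 85.7 and 104 CPM in saline, at 137, 82.8 and 77.3 CPM in cocaine and at 150.0, 77.9 and 90.3 CPM in yoked, with 81.5 CPM in the input and 74.5 CPM in the unbound library. The gene that drives the tag was highest in the number 1 library of each group. In the other 6 IP libraries it spanned 77.3 to 104 CPM, on both sides of its input level.

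Crym (chromosome 7, 120186380 to 120202111, minus strand) encodes mu-crystallin, which binds thyroid hormone in the cytosol. It stood at 163, 64.7 and 69.8 CPM in saline, at 220.0, 73.1 and 68.1 CPM in cocaine and at 133, 66.3 and 65.0 CPM in yoked, with 71.7 CPM in the input and 44.4 CPM in the unbound library. The 6 IP libraries numbered 2 or 3 spanned only 64.7 to 73.1 CPM and included the input value, while those numbered 1 were each at 133 CPM or more.

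Vat1l (chromosome 8, 114205612 to 114374071, plus strand), related to a protein of synaptic vesicle membranes, is a marker of large layer 5 projection neurons. It stood at 158, 74.9 and 80.7 CPM in saline, at 149, 76.7 and 72.8 CPM in cocaine and at 150.5, 66.9 and 75.3 CPM in yoked, with 76.2 CPM in the input and 47.5 CPM in the unbound library. The values within a number hardly differed between treatments.

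Npr3 (chromosome 15, 11839896 to 11907287, minus strand) encodes the clearance receptor for natriuretic peptides. It stood at 43.2, 42.7 and 45.0 CPM in saline, at 29.3, 37.3 and 27.1 CPM in cocaine and at 42.0, 39.6 and 44.8 CPM in yoked, with 34.1 CPM in the input and 15.9 CPM in the unbound library. The replicate number left no mark on it, the 3 cocaine libraries lay below the other 6 IP libraries, and the unbound library was the lowest. Exons on the opposite strand overlap 321 bases of Npr3 (Gm5144) and 330 bases of Pou3f1 (Gm2164), and without a stated strand setting their reads cannot be told apart from those of the gene.

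**Figure D1:**
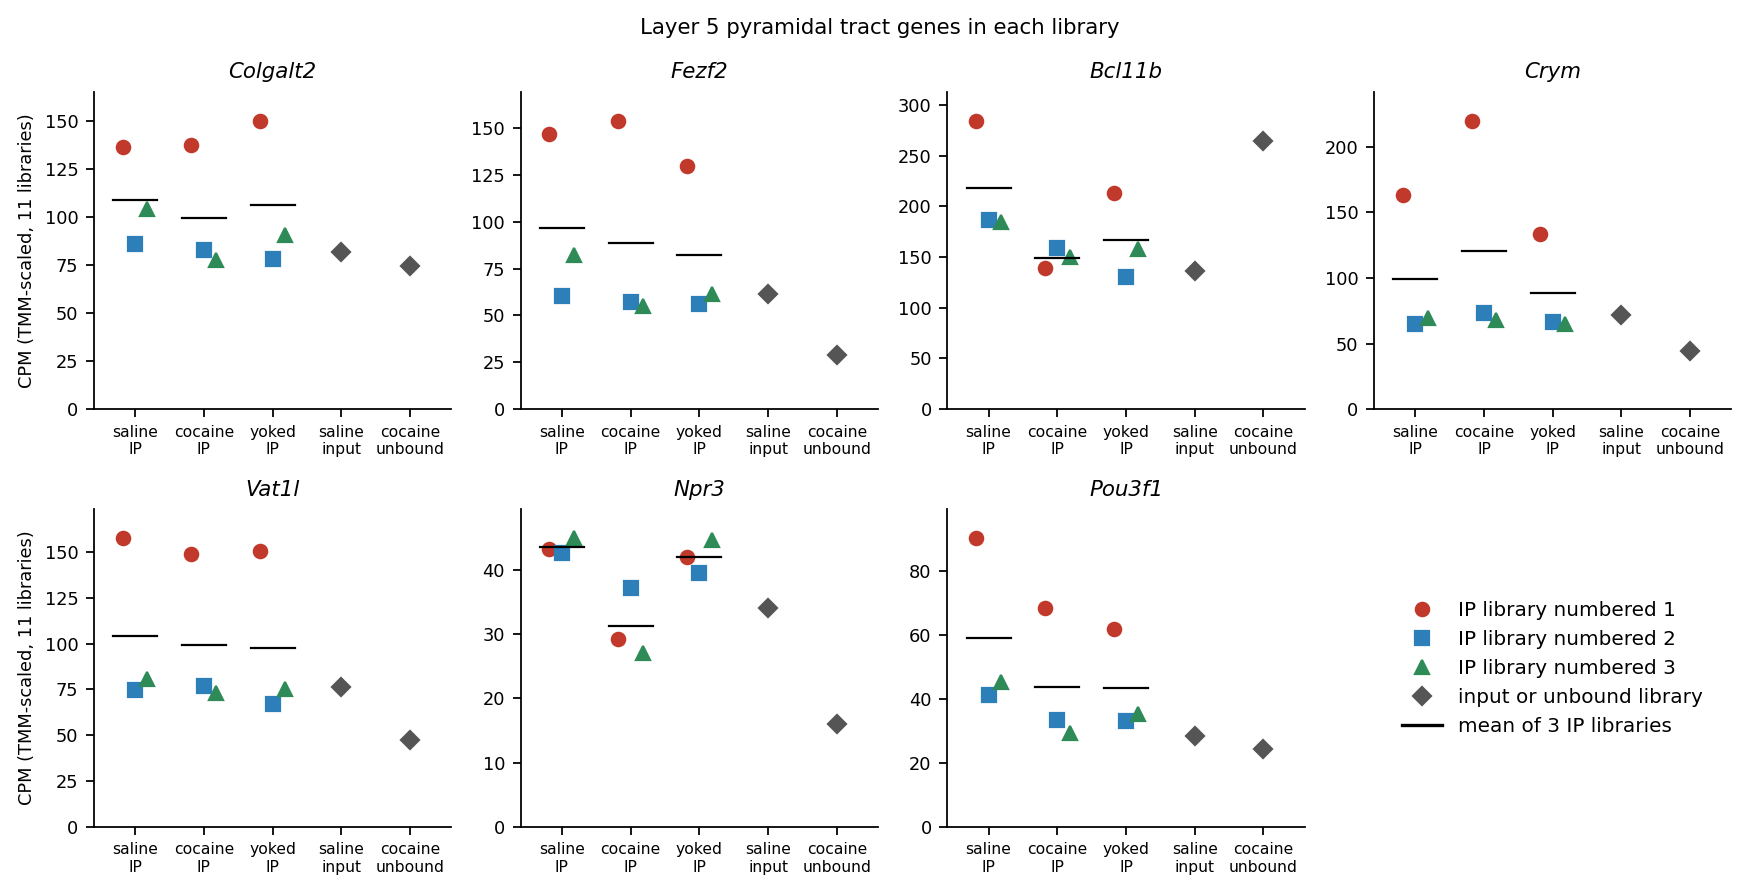
Level of each gene in the 11 libraries, in CPM scaled by TMM, by treatment and RNA fraction. Circles, squares and triangles are IP libraries numbered 1, 2 and 3, diamonds are the input and unbound libraries, and lines are means of 3 IP libraries; circles stand apart for Colgalt2, Fezf2, Crym, Vat1l and Pou3f1, but not for Npr3 or for Bcl11b after cocaine.

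Vat1l, whose level followed the number, and Npr3, whose level did not, are represented here by the stretch from 250 to 31 bases before the gene start in RefSeq, to set the proximal promoters of members with unlike patterns side by side. The sequences are from RefSeq on GRCm38.p6, which held 4 of the 7 members (Fezf2, Bcl11b, Vat1l and Npr3), and both run 5′ to 3′ on the gene's own strand with CpG dinucleotides in capitals. The first is chr8:114205390-114205609 on the plus strand and the second chr15:11907402-11907621 on the minus strand.
Vat1l: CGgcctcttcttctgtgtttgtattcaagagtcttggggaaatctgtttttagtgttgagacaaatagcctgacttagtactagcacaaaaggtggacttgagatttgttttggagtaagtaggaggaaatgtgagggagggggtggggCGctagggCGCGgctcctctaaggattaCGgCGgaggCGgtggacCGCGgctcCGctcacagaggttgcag
Npr3: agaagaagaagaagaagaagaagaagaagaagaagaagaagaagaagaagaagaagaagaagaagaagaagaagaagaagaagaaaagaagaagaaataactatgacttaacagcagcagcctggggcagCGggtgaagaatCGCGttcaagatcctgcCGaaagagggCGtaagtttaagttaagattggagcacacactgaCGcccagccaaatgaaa
The Vat1l stretch held 10 CpGs with 52.3% G and C, and the Npr3 stretch held 6 CpGs with 41.8%, beside a median of 5 CpGs and 51.8% over all 32851 RefSeq windows of this length. The Npr3 stretch begins with a run of the triplet AAG, the longest unbroken part of which spans 81 bases. A search of both strands for the GC box, written GGGCGG, found 1 in the Fezf2 window and none in the windows of Vat1l, Npr3 or Bcl11b, where 28.5% of all windows held it. The TATA box, searched as TATAAA, was in none of the 4 members' windows and in 9.95% of all. The windows end 31 bases before the start, so a TATA box closer to it could not be found. The search thus does not tell whether these promoters have one. The E-box with the letters CACGTG was also in none of the 4, and 5.01% of all windows held it. The octamer that POU factors such as Pou3f1 bind, ATTTGCAT, was likewise in none of the 4 and in 1.49% of all. The RefSeq starts are not those of the GENCODE gene models, lying 28 bases downstream for Vat1l, 84 upstream for Npr3, 188 downstream for Bcl11b and 2324 downstream for Fezf2, and the Fezf2 and Bcl11b windows overlap GENCODE exons by 64 and 158 bases.

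Levels can be compared between genes only per length of exon, for which CPM was divided by the summed exon length in kb (3.05 for Fezf2 up to 9.39 for Npr3). In the 6 IP libraries numbered 2 or 3, Fezf2 (18.1 to 26.9 CPM per kb), Colgalt2 (18.2 to 24.5), Crym (19.1 to 21.6) and Bcl11b (16.1 to 23.0) overlapped in level. Vat1l followed at 12.3 to 14.8, Pou3f1 at 7.61 to 11.8 and Npr3 at 2.89 to 4.79 CPM per kb, and these 3 overlapped neither each other nor the first 4. In the 3 libraries numbered 1 the order spread out. Crym (39.3 to 64.9 CPM per kb) and Fezf2 (42.6 to 50.5) overlapped at the top, Colgalt2 (32.1 to 35.3) and Vat1l (27.3 to 28.9) came next without overlapping, and Bcl11b spanned 17.1 to 35.1. Pou3f1 (16.1 to 23.4) overlapped Bcl11b, and Npr3 (3.12 to 4.61) was again lowest. In the input Crym (21.1 CPM per kb), Fezf2 (20.2), Colgalt2 (19.2) and Bcl11b (16.8) were again above Vat1l (13.9), Pou3f1 (7.40) and Npr3 (3.63). Bcl11b led the unbound library at 32.6 CPM per kb, ahead of Colgalt2 at 17.6.

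**Figure D2:**
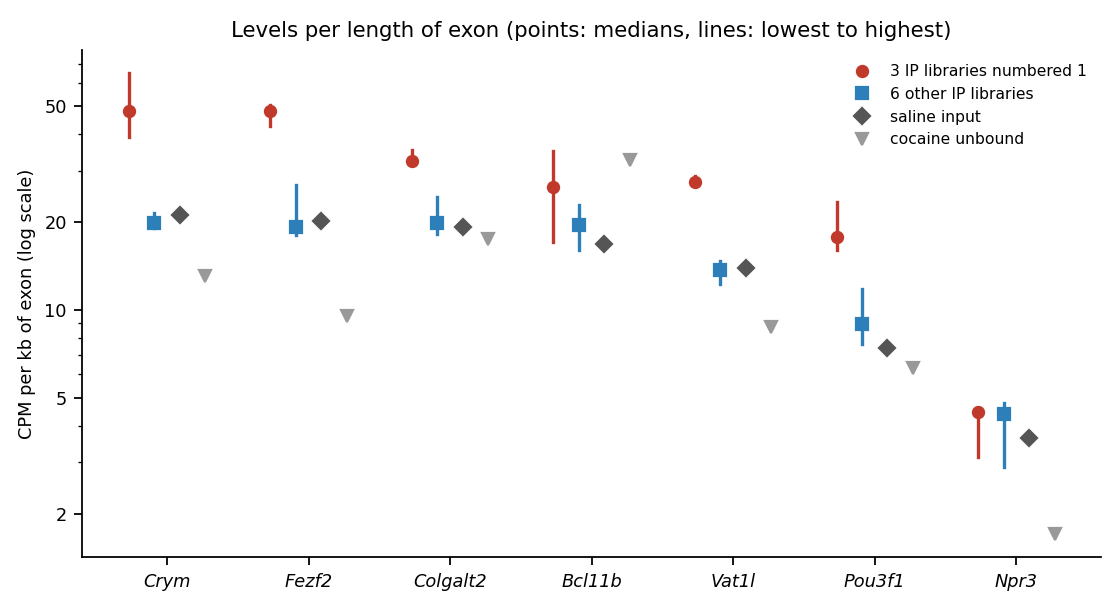
CPM per kb of exon on a log scale for the 7 genes in the libraries numbered 1, the 6 other IP libraries, the input and the unbound library. Points are medians and lines run from the lowest to the highest library; Bcl11b, at 32.6 CPM per kb in the unbound library, is above both of its IP medians there and the other 6 genes are below theirs.

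The split by number was tested in edgeR over the 9 IP libraries with treatment as a term, as number 1 against the mean of numbers 2 and 3. In number 1, 6 of the 7 genes were higher and 0 lower, where 27.6% of the 16417 genes tested were called higher and 27.7% lower, at a Benjamini-Hochberg adjusted p under 0.05 over all of them. The median of the 7 was 1.04 on the log2 scale, beside 0.01 over all genes tested. Crym differed by 1.34 ± 0.11 (log2, SE; adjusted p = 3.39e-07), Fezf2 by 1.24 ± 0.11 (5.10e-07), Vat1l by 1.05 ± 0.09 (5.06e-07) and Pou3f1 by 1.04 ± 0.10 (1.40e-06). For the last pair the ratios of mean CPM were 2.04 and 2.03. Colgalt2, the gene of the driver, differed less, by 0.73 ± 0.10 (adjusted p = 3.82e-05). For these 5 genes all 3 libraries numbered 1 lay above the other 6, which held for 21.1% of the genes tested.

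Bcl11b passed the same test with a smaller difference of 0.38 ± 0.13 (log2, SE; edgeR adjusted p = 0.0242), and the call rested on single libraries. It ended without saline number 1, 2 or 3 or yoked number 1 or 2 (0.25 to 0.34, adjusted p 0.0721 to 0.217) and without the treatment term (0.41, adjusted p = 0.0663), whereas without cocaine number 1 the difference was 0.61 (adjusted p = 3.63e-05). Npr3 was not called (-0.04 ± 0.12, 95% interval -0.28 to 0.21, adjusted p = 0.816), an interval that ends below the estimates of the other 6 genes.

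Number 3 against number 2, the same fit between the remaining libraries, called 0 of the 7 genes and 0% of the 16417 (edgeR; 0 of the 7 and 320 of all genes at an unadjusted p under 0.05, and 0 of the 7 by DESeq2). The largest difference among the members was 0.18 ± 0.13 for Fezf2 (95% interval -0.10 to 0.46), and Crym stood at 0.00 ± 0.14. No difference between numbers 2 and 3 was thus found for these genes, within the limits of the 95% intervals. The highest upper ends were 0.38 for Bcl11b, 0.40 for Colgalt2 and 0.46 for Fezf2. The lowest lower ends were -0.35 for Npr3, -0.29 for Crym and -0.27 for Bcl11b.

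The step was then taken within each treatment, as log2 of number 1 over the mean of numbers 2 and 3. Vat1l gave 1.02, 0.996 and 1.08 in saline, cocaine and yoked, the most even of the 7, followed by Npr3 (-0.02, -0.12 and 0.00). Fezf2 gave 1.06, 1.45 and 1.14, Crym 1.28, 1.64 and 1.02, Pou3f1 1.06, 1.13 and 0.86, and Colgalt2 0.53, 0.78 and 0.84. Bcl11b gave 0.62 in saline and 0.58 in yoked but -0.15 in cocaine. A test of these differences between treatments (the interaction of number 1 with treatment in edgeR, chosen after the data were seen) called 0 of the 7 genes in each of the 3 pairs of treatments. Each treatment has 1 library numbered 1, so the spread in this test came from numbers 2 and 3, and the library numbered 1 is assumed to vary like them. For cocaine against saline 0.524% of genes were called, for cocaine against yoked 3.19% and for yoked against saline 0%. Bcl11b came nearest, at -0.74 ± 0.21 (SE) for cocaine minus saline (unadjusted p = 0.00174, adjusted p = 0.0932) and -0.70 ± 0.21 for cocaine minus yoked (adjusted p = 0.0643). The step of Crym was 0.64 ± 0.19 larger in cocaine than in yoked (adjusted p = 0.0698).

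**Figure D3:**
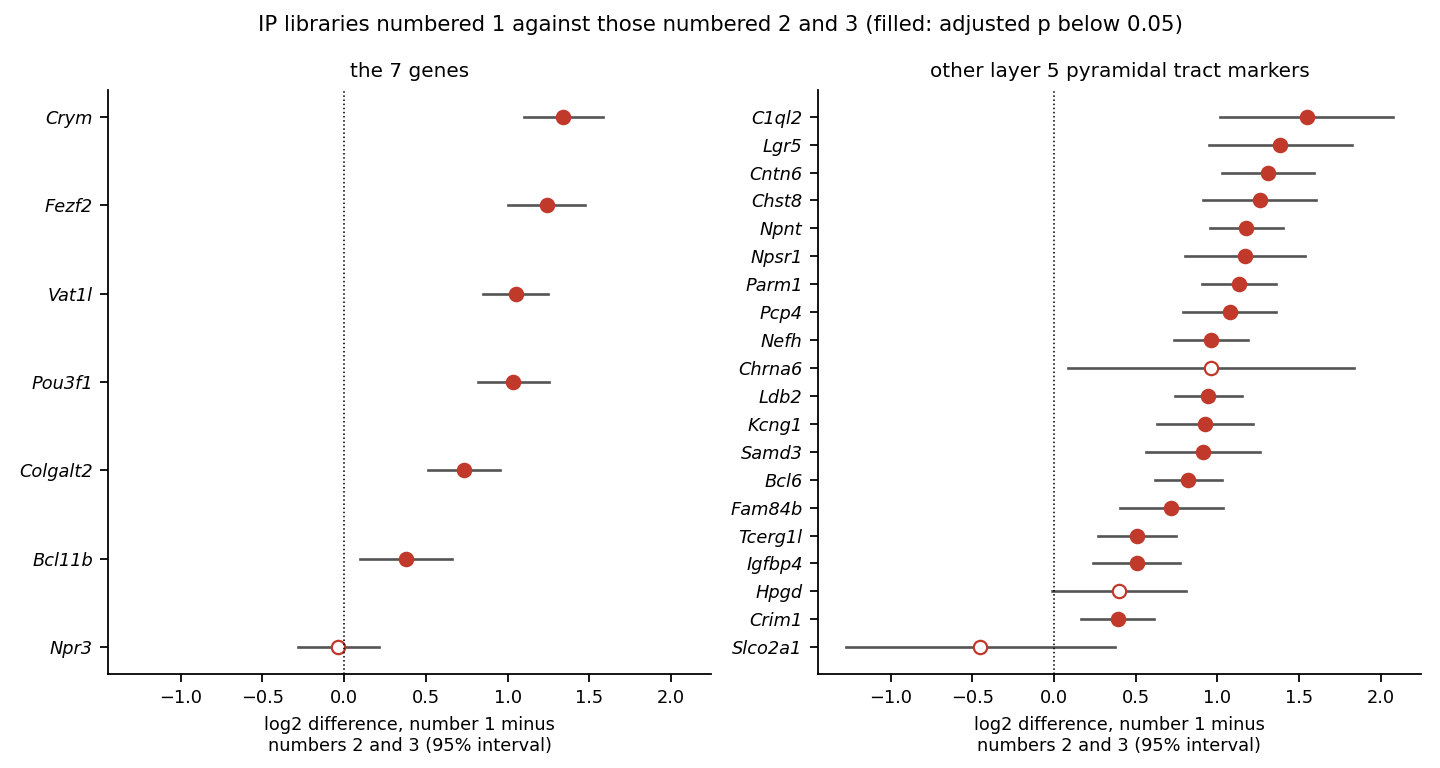
Log2 difference of IP libraries numbered 1 from those numbered 2 and 3, with 95% intervals, for the 7 genes and for 20 other markers of layer 5 pyramidal tract neurons. Filled points passed an adjusted p of 0.05: 6 of 7 on the left, with Npr3 at -0.04, and 17 of 20 on the right.

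Of 21 other markers listed for the same neurons, 20 matched a symbol and were tested, and 17 of these were higher in number 1 and 0 lower, with a median of 0.95 (log2), where 27.6% of all genes tested were higher and 27.7% lower. The list was chosen with earlier results of these data known, so these counts are no independent check on the members. Cntn6, a contactin of the axon surface, differed by 1.31 ± 0.13 (SE; edgeR adjusted p = 1.70e-06), the sulfotransferase gene Chst8 by 1.26 ± 0.16, the matrix protein gene Npnt by 1.18 ± 0.10 and the neuropeptide S receptor gene Npsr1 by 1.17 ± 0.17. The 3 that did not pass, named after their values were seen, were Chrna6 (0.96 ± 0.41), Hpgd (0.40 ± 0.19) and Slco2a1 (-0.45 ± 0.39). A mixed list of layer 5 intratelencephalic and layer 5a markers went both ways, 4 of 8 higher and 2 lower (median 0.14). Tmem91 stood at 0.91 ± 0.17 and Sulf2 at 0.80 ± 0.10, but Tshz2, a zinc finger gene, at -1.43 ± 0.13 and Deptor, an inhibitor of mTOR, at -0.75 ± 0.16. Of 12 other regulators of projection neuron fate 2 were higher and 4 lower (median 0.05), which is near the shares over all genes. The 4 lower ones were Zeb2 (-0.92 ± 0.14), Sox5 (-0.39 ± 0.12), Tle4 (-0.35 ± 0.13) and Tbr1 (-0.34 ± 0.12), the last 3 being genes of corticothalamic neurons.

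Markers of other cells were counted in the same contrast, where 27.6% of all genes were higher and 27.7% lower. The summed level of the 7 genes was 881 to 1022 CPM in the libraries numbered 1, 471 to 611 CPM in the other 6 IP libraries, 490 CPM in the input and 500.3 CPM in the unbound library. Over the same libraries numbered 1 and the other 6, the 12 astrocyte markers summed to 1012 to 1455 against 2472 to 3031 CPM (10 of 12 lower), the 12 oligodendrocyte markers to 627 to 793 against 1460 to 1992 CPM (10 of 12 lower) and the 10 layer 6 markers to 152 to 165 against 235 to 275 CPM (7 of 10 lower). The 8 nuclear noncoding RNAs summed to 223 to 442 against 2507 to 7383 CPM (8 of 8 lower). Microglia markers were lower in 6 of 12, inhibitory interneuron markers in 8 of 10 with 1 higher, striatal markers in 7 of 15 with 2 higher, and layer 2 to 4 markers in 5 of 9 with 1 higher. Endothelial and mural markers were higher in 7 of 12 and lower in 3. Hippocampal markers, higher in 2 of 5 and lower in 1, were near the shares over all genes. The part of these shifts in the step of the 7 genes was not tested. In the input the astrocyte, oligodendrocyte, layer 6 and nuclear noncoding RNA sums were 2628, 1697, 256 and 5314 CPM. Each of these lay within the range of the 6 IP libraries numbered 2 or 3.

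Cocaine against saline self-administration asks which transcripts of the IP RNA differ after the drug. Since each treatment ran on a lane of its own, treatment and lane cannot be told apart in any of the 3 contrasts of treatments. None of the 7 genes was called (edgeR, 9 IP libraries as 3 group means), nor was any of the 16417 genes tested (0%), while 168 genes and 1 member, Npr3, had an unadjusted p under 0.05; DESeq2 called 0 as well. Npr3 averaged 31.2 ± 5.35 CPM after cocaine and 43.6 ± 1.21 CPM after saline (SD, n = 3 each), a log2 fold change of -0.47 ± 0.16 (SE; 95% interval -0.83 to -0.11; unadjusted p = 0.0162, adjusted p = 0.9998 over all genes). Every cocaine library lay below every saline library for Npr3 and for Bcl11b, 2 of the 7 genes, where 2.44% of the genes tested did so. Bcl11b averaged 149.5 ± 10.1 against 219 ± 57.4 CPM, a log2 fold change of -0.54 ± 0.24 (95% interval -1.08 to 0.01).

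Compared within a number, Npr3 was lower after cocaine by log2 differences of -0.56, -0.20 and -0.73 in numbers 1, 2 and 3. Bcl11b gave -1.03, -0.23 and -0.29, so that most of its mean difference came from number 1, and without all libraries numbered 1 it was -0.26 while Npr3 was -0.44. Cells of vessel walls also make Npr3. The 12 endothelial and mural cell markers summed to 23.2 to 25.6 CPM in cocaine and 31.2 to 32.8 CPM in saline, with 11 of 12 below saline (median log2 -0.62, 0 called). All of them except Rgs5 had low levels, averaging under 5 CPM in each treatment. Rgs5 averaged 7.03 CPM in cocaine and 7.09 in saline, and Vtn 4.29 and 3.70 CPM. The sum of these markers spanned 22.6 to 39.0 CPM in yoked, and their part in the Npr3 values was not tested.

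For the other 5 genes the cocaine and saline libraries overlapped, and the spread set by the number left wide intervals. Pou3f1 stood at -0.41 ± 0.43 (log2, SE; 95% interval -1.39 to 0.57) and was below saline within each number, by -0.40, -0.29 and -0.63. Crym stood at 0.30 ± 0.56, Colgalt2 at -0.12 ± 0.33, Fezf2 at -0.10 ± 0.52 and Vat1l at -0.05 ± 0.44. The 95% intervals ran from -0.96 to 1.56 for Crym and from -1.04 to 0.94 for Vat1l, bounds that hold the spread between numbers. With the number as a block they were -0.08 to 0.50 for Crym and -0.29 to 0.19 for Vat1l. In that fit the intervals of Npr3 (-0.76 to -0.19), Bcl11b (-0.82 to -0.16) and Pou3f1 (-0.68 to -0.16) lay below 0, and each had an adjusted p of 0.377. The median over the 7 was -0.12 against 0.03 over all genes, and of the 20 other pyramidal tract markers 0 were called, 4 lay above 0, and the median was -0.25. The other lists, also with 0 called, went both ways. Above 0 were 12 of 12 oligodendrocyte markers (median 0.27), 10 of 12 astrocyte (0.28), 11 of 12 microglia (0.49) and 9 of 10 interneuron markers (0.31). Only 1 of 12 endothelial and mural markers (-0.62), 1 of 8 nuclear noncoding RNAs (-0.24) and 1 of 12 fate regulators (-0.10) lay above it. Of the layer 5 intratelencephalic and layer 5a markers 2 of 8 did (-0.11). Their part in the members' values was not tested.

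Yoked against saline self-administration uses the same 3 saline libraries, so its values are not independent of those for cocaine. None of the 7 genes was called and 0% of all genes (edgeR; 0 members and 66 genes at an unadjusted p under 0.05; 0 by DESeq2). All 7 estimates lay below 0 with a median of -0.16, against 0.00 over all genes. No member had every yoked library below every saline library, as 2.31% of the genes tested had. Pou3f1 was at -0.43 ± 0.44 (log2, SE), with within-number differences of -0.54, -0.31 and -0.37, and Bcl11b at -0.38 ± 0.24, with -0.41, -0.51 and -0.23. Fezf2 (-0.22 ± 0.52), Crym (-0.16 ± 0.56), Vat1l (-0.09 ± 0.44), Npr3 (-0.04 ± 0.16) and Colgalt2 (-0.03 ± 0.33) were closer to 0. For Npr3, whose libraries scattered least, the 95% interval was -0.40 to 0.32. With the number as a block, the intervals of Pou3f1 (-0.66 to -0.14) and Bcl11b (-0.70 to -0.05) lay below 0. Their unadjusted p was 0.00527 and 0.0274 (edgeR), and each had an adjusted p of 0.9996. The intervals of the other genes spanned 0 in that fit. Among the 20 other markers of the same neurons 0 were called, 2 lay above 0, and the median was -0.14. Above 0 were 12 of 12 astrocyte markers (median 0.25), 11 of 12 microglia markers (0.36), 8 of 10 interneuron markers (0.17) and 8 of 8 nuclear noncoding RNAs (0.28), with 0 called and their part not tested. Endothelial and mural markers lay above it in 6 of 12 (0.00) and fate regulators in 1 of 12 (-0.09).

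Cocaine against yoked shares the 3 cocaine libraries with the first comparison. None of the 7 genes was called and 0% of all genes (edgeR; 1 member and 182 genes at an unadjusted p under 0.05; 0 by DESeq2). Npr3 was the 1 member, at 31.2 ± 5.35 CPM after cocaine and 42.1 ± 2.59 CPM in yoked (SD, n = 3 each), a log2 fold change of -0.43 ± 0.16 (SE; 95% interval -0.79 to -0.07; unadjusted p = 0.0251, adjusted p = 0.972). It was also the 1 member whose cocaine libraries all lay below the yoked ones, as 2.56% of genes did, with within-number differences of -0.52, -0.09 and -0.72. Crym was highest in cocaine number 1 (220.0 against 133 CPM in yoked number 1) and stood at 0.46 ± 0.56, with within-number differences of 0.72, 0.14 and 0.07. Bcl11b (-0.16 ± 0.24), Fezf2 (0.12 ± 0.52), Colgalt2 (-0.09 ± 0.33), Vat1l (0.04 ± 0.44) and Pou3f1 (0.02 ± 0.43) lay within 1 SE of 0. With the number as a block, the interval of Npr3 was -0.72 to -0.15 and that of Crym 0.03 to 0.61. Their unadjusted p was 0.0058 and 0.0329 (edgeR), and their adjusted p 0.143 and 0.231. The intervals of the other genes spanned 0 in that fit. The median over the 7 was 0.02 and that over all genes 0.01. Nuclear noncoding RNAs lay above 0 in 0 of 8 (median -0.64) and endothelial and mural markers in 2 of 12 (-0.39), with 0 called and their part not tested.

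**Figure D4:**
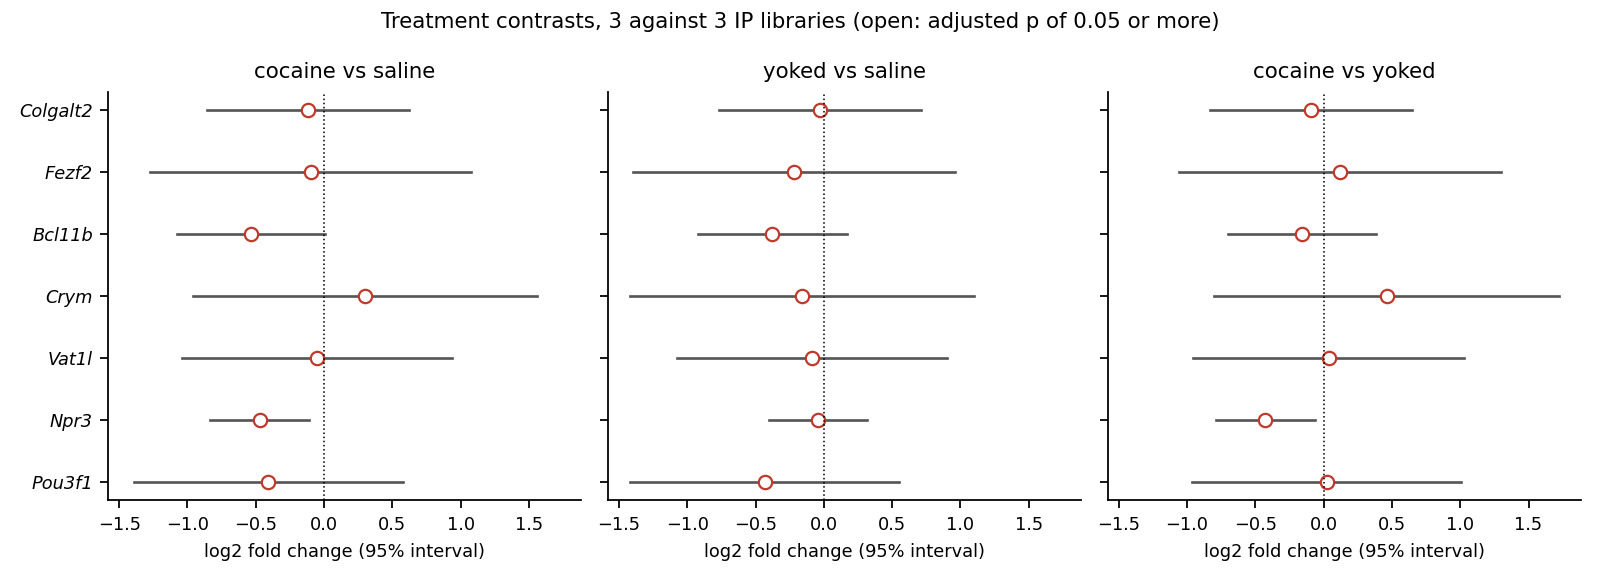
Log2 fold changes of the 7 genes in the 3 treatment contrasts with 95% intervals, from edgeR over 9 IP libraries. All points are open (not called); the interval of Npr3 lies below 0 in both contrasts with cocaine and spans 0 in yoked against saline.

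The saline IP libraries were set against the saline input to see how far the pull-down raised each gene. The input is a single library from a different lane, so an effect of the fraction and one of the lane cannot be told apart, and the input has no spread of its own. Pou3f1 had log2 ratios of 1.66, 0.53 and 0.67 in numbers 1, 2 and 3, the highest mean of the 7 at 0.95 ± 0.62 (SD, n = 3). Bcl11b followed with 1.06, 0.45 and 0.44, then Fezf2 with 1.26, -0.03 and 0.42. Colgalt2 had 0.74, 0.07 and 0.35, Vat1l 1.05, -0.02 and 0.08, and Crym 1.19, -0.15 and -0.04. In Npr3 the 3 ratios were nearly equal, at 0.34, 0.32 and 0.40.

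Pou3f1, Bcl11b, Colgalt2 and Npr3 exceeded the input in all 3 saline libraries, 4 of 7 where 18.1% of 13484 genes did. None of the 7 was at least 2-fold higher in all 3 (0.0742% of genes) or at least 2-fold lower (0.0445%), and none was called by edgeR over the 11 libraries (0% of 18070 genes; 0 members and 106 genes at an unadjusted p under 0.05). The median ratio of the 7 was 1.06, 0.07 and 0.40 in numbers 1, 2 and 3, against 0.05, -0.01 and 0.00 for all genes, so in number 2 the median stood close to the input. Pou3f1, Bcl11b and Npr3 lay above it there, and the other 4 genes between -0.15 and 0.07.

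The cocaine IP libraries over the cocaine unbound library gave ratios above 0 for 6 of the genes and below 0 for Bcl11b. The unbound library ran on another lane, and its library number, 912, is far from those of the other libraries, 438 to 447, so an effect of the fraction and one of the lane or preparation cannot be told apart. Reads counted as ambiguous between genes were 7.34% there and 1.56% to 1.91% in the other libraries. Their part in the ratios was not tested. Fezf2 had log2 ratios of 2.41, 0.98 and 0.93 in numbers 1, 2 and 3, Crym 2.31, 0.72 and 0.62, Vat1l 1.65, 0.69 and 0.61, and Pou3f1 1.49, 0.46 and 0.26. Npr3 had 0.87, 1.22 and 0.76, and Colgalt2, the driver gene, had 0.88, 0.15 and 0.05, the smallest positive mean at 0.36. Bcl11b stood below the unbound library at -0.93, -0.73 and -0.81, a mean of -0.83 ± 0.10 (SD, n = 3).

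In all 3 cocaine libraries 6 of the 7 genes were above the unbound library, where 30.4% of 13546 genes were. None of the 7 was at least 2-fold higher in all 3 (0.369% of genes) or at least 2-fold lower (2.38%), and edgeR over the 11 libraries called none of them (0.0553% of 18070 genes). At an unadjusted p under 0.05 were 2 members and 1870 genes, the members being Npr3 (0.97 ± 0.24, log2, SE; adjusted p = 0.252) and Bcl11b (-0.82 ± 0.32; adjusted p = 0.432). The saline input, which passed through no pull-down, also differed from the unbound library, by log2 ratios of 1.08 for Fezf2, 1.09 for Npr3, 0.69 for Crym, 0.68 for Vat1l, 0.22 for Pou3f1, 0.13 for Colgalt2 and -0.96 for Bcl11b. In the unbound library the 15 striatal markers summed to 1193 CPM against 958 CPM in the input, and the 10 interneuron markers to 1251 against 819 CPM. Within the striatal list Rgs9, Pde10a and Gpr6 were lower in the unbound library. Other sums were also higher there, as for oligodendrocyte markers (2612 against 1697 CPM), fate regulators (2443 against 1801) and nuclear noncoding RNAs (15855 against 5314). Those of astrocyte, hippocampal, layer 2 to 4 and the other pyramidal tract markers were lower. Striatal projection neurons and interneurons both make Bcl11b, and their part in its unbound level was not tested.

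**Figure D5:**
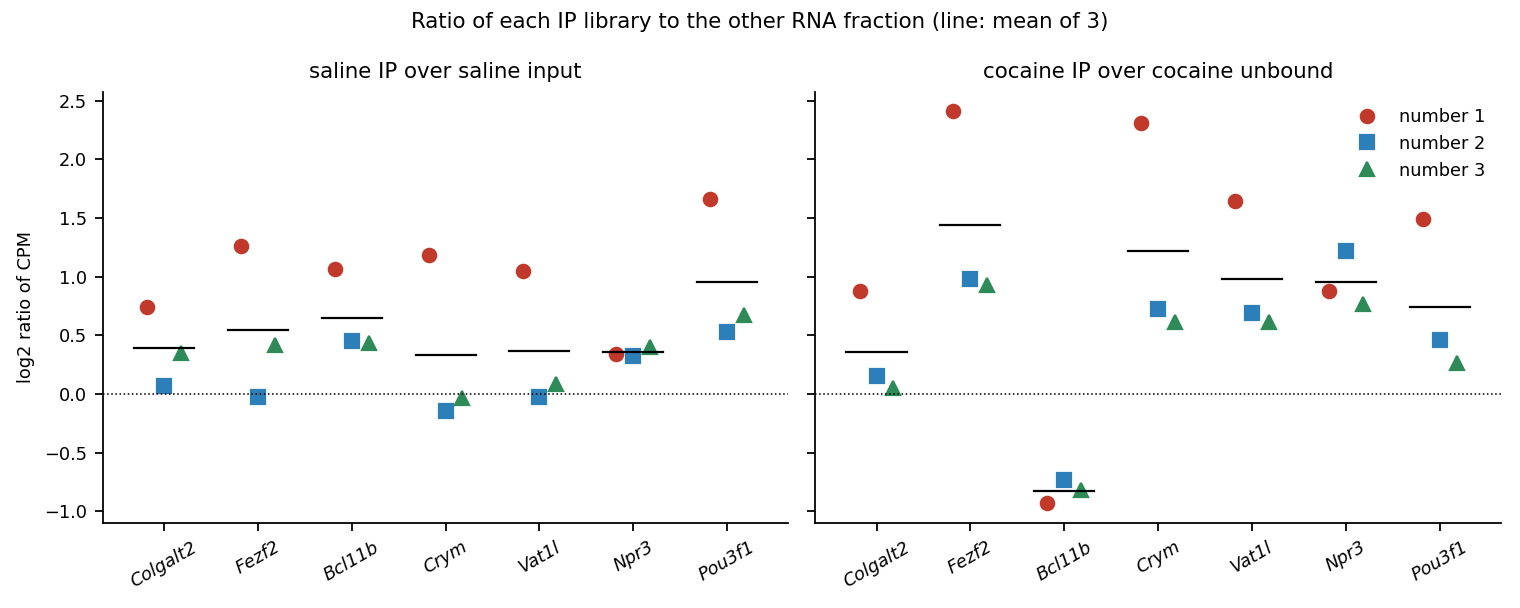
Log2 ratio of each saline IP library to the saline input, and of each cocaine IP library to the cocaine unbound library, for the 7 genes. Symbols give the library number and lines the mean of 3; number 1 is highest for every gene but Npr3 in the left panel, and Bcl11b alone lies below 0 in all 3 libraries in the right panel.

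Genes whose log2 levels ran most alike with each member over the 11 libraries were listed as a description. The comparison was over 9910 genes of at least 5 CPM on average, and since the libraries differ mainly by number and fraction, the points behind each Pearson r share those splits. Nearest to Fezf2 were Chst8 (r = 0.99), Bcl6 and Emb, to Colgalt2 Npnt (0.98), Tmem150c and Cdh22, and to Vat1l Lamp5 (0.99), Sv2b and Dpy19l1. Nearest to Crym were Nkiras1 (0.99), Rwdd2a and Ppil3, and to Pou3f1 Pex5l (0.98), Dpy19l1 and Nipa2. Chst8, Npnt and Bcl6 are themselves on the list of pyramidal tract markers, while Lamp5 is the 1 gene of the layer 2 to 4 list that was higher in number 1 (1.12 ± 0.10, log2, SE). Npr3 ran closest to the somatostatin receptor gene Sstr4 (0.96), Reep1 and Chrna4, and Bcl11b to Tenm3 (0.97), Tmem184c and Hdac9. Dpy19l1, near both Vat1l and Pou3f1, was the 1 gene among the 3 nearest to more than 1 member.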

How the data were processed

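RNA was sequenced in 9 IP, 1 input and 1 unbound library. Alignment was with STAR (version 2.0.0e) on the mm10 build and gene counting with HTSeq, per the submitters' processing notes; the sources used here give no HTSeq version, annotation or strand setting. The authors deposited raw read counts per gene symbol, with 32537 entries per library. Entries that name no gene (the 5 HTSeq special counters and 1 named unknown) stayed out of library sizes and tests; reads outside annotated genes were 6.28% to 15.5% and reads aligned to several places 28.3% to 47.0% of all entries.

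The 7 genes and the marker lists were chosen with earlier results of these data known. Printed CPM were scaled by TMM over 11 libraries. Tests were edgeR 4.0.16 (R 4.3.3) quasi-likelihood fits with TMM, filterByExpr and robust dispersion: 3 group means for treatment, number plus treatment for the number, and 5 group means over 11 libraries for the fractions, with Benjamini-Hochberg adjustment over all genes tested (threshold 0.05). With 1 library in the input and unbound groups, those 2 are assumed to vary like the IP groups. Ratios of fractions used a prior count of 2 and genes of at least 1 CPM on average. DESeq2 1.42.0, other scalings and filters, a replicate block and leaving out libraries were alternatives. The treatment and number fits were tested on simulated data. All members passed the expression filters, with 316 counts or more in every library; counts include PCR copies.

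From each list, the text names up to 4 genes called in the number contrast with at least 5 CPM and the largest change, and for likeness the 3 genes with the highest r per member. Whether the numbers pair the libraries was checked on deviations from group means: same-numbered libraries correlated at 0.38 to 0.80 in all 9 pairs, libraries of different number at -0.74 to 0.62 (18 pairs). The pairing thus comes from the data. Per the labels, same-numbered IP libraries share a sequencing barcode, and what else a number shares is not stated.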

Additional observations from a re-analysis of the deposited data

Results flagged for a closer look

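Bcl11b was the 1 gene of the 7 whose library numbered 1 lay above both of the others in some treatments and below both in another. In saline, number 1 exceeded numbers 2 and 3 by 0.61 and 0.63 on the log2 scale, in yoked by 0.71 and 0.44, whereas in cocaine it stood at -0.20 and -0.11. The difference of the step was -0.74 between cocaine and saline (edgeR interaction, adjusted p = 0.0932) and -0.70 between cocaine and yoked (adjusted p = 0.0643), and neither passed the threshold of 0.05 over all genes. Each step rests on 1 library numbered 1 per treatment, which is assumed to vary like numbers 2 and 3. In Npr3 number 1 lay between numbers 2 and 3 in each treatment.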

How the results depend on the processing

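The treatment contrasts called 0 of the 7 genes under every alternative run, and the number contrast called 5 or 6 of them, with 7837 to 9391 genes in all. Fit with a replicate block, the 3 treatment contrasts still called 0 genes; the median of the members in yoked against saline was -0.11, Npr3 stood at an adjusted p of 0.377 (cocaine against saline) and 0.143 (cocaine against yoked), the lowest of its alternatives, which reached up to 1 in both, and the block changed no call. Some estimates near 0 changed sign. Pou3f1 in cocaine against yoked was -0.00209 with DESeq2 size factors, -0.00314 with DESeq2, -0.026 with the block and -0.13 without all libraries numbered 1. Without the latter Fezf2 was -0.069 and Bcl11b 0.10. Crym in number 3 against number 2 was 0.00483 with DESeq2 size factors, 0.000611 without a filter and 0.00656 with DESeq2. The causes were not tested.

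Leaving out each replicate in turn gave medians of the members from -0.49 to 0.086 in cocaine against saline, -0.59 to 0.18 in yoked against saline, -0.40 to 0.38 in cocaine against yoked, 0.97 to 1.07 for the number, 0.21 to 0.57 over the input and 0.65 to 1.05 over the unbound library. Estimates that changed sign on leaving out 1 library ranged in cocaine against saline as Colgalt2 -0.44 to 0.086, Fezf2 -0.78 to 0.35, Crym -0.49 to 0.87, Vat1l -0.48 to 0.38, Pou3f1 -0.91 to 0.044. In yoked against saline the ranges were Colgalt2 -0.37 to 0.18, Fezf2 -0.71 to 0.23, Crym -0.59 to 0.41, Vat1l -0.55 to 0.34, Pou3f1 -0.78 to 0.021. In cocaine against yoked they were Colgalt2 -0.42 to 0.25, Fezf2 -0.57 to 0.62, Bcl11b -0.32 to 0.064, Crym -0.33 to 0.90, Vat1l -0.40 to 0.50, Pou3f1 -0.48 to 0.38. In number 3 against number 2 they were Bcl11b -0.066 to 0.26, Crym -0.073 to 0.14, Npr3 -0.16 to 0.12, Pou3f1 -0.055 to 0.14. Npr3 in the number contrast ranged from -0.10 to 0.054 and Crym over the input from -0.091 to 0.70. The lone input and unbound libraries, the split by number and groups of 3 limit these comparisons.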
